A study of Mus musculus with 2 samples.

Results

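The oligodendrocyte lineage genes described here are 37 genes of mouse hippocampus, taken by gene symbol from a list that runs from transcription factors of the lineage through markers of its precursor cells to genes of mature, myelin-forming cells. All 37 were found, of 55536 annotated genes, and they lie on 16 chromosomes. The data are total RNA-seq of hippocampus from 2 adult B6CASTF1/J mice, both female and 8 to 10 months old. This strain is the F1 hybrid between the inbred strains C57BL/6J and CAST/EiJ. The labels name no treatment. For each library 300 ng of RNA was used, ERCC spike-ins, synthetic RNAs of known amount, were added, and the labels name a directional kit with reduced ribosomal RNA. The libraries, from animals 1 and 5, are replicates 1 and 2 of a single group, so no conditions were compared. The labels give both the same donor identifier, and the tissue term names a layer of the hippocampus without saying which. If the libraries were from the same animal, the spread given below would be technical.

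Oligodendrocytes wrap axons of the central nervous system in myelin, a stack of membrane rich in galactolipids and a few abundant proteins. They arise from precursor cells that keep dividing in the adult brain and that respond to platelet-derived growth factor. A precursor that leaves the cycle passes through a committed stage, in which it makes proteins not kept later, before it forms myelin. The factors Olig2 and Sox10 act through the whole lineage, and Myrf, a membrane-bound factor that cuts itself free, turns on myelin genes at the last step.

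The libraries held 34208349 and 28417193 expected counts. Of genes of hippocampal principal cells, 5 of 5 were detected, among them Wfs1 at 106 ± 29 TPM and Cpne4 at 63.4 ± 2.4 TPM. So were 3 of 3 neuronal genes, led by Snap25 and Syt1. Levels are TPM, a length-corrected share of all transcripts, as mean ± SD with n = 2. Detection here means 1 TPM or more in each library. Since 59.1% of nuclear protein-coding genes were detected by this rule, these markers do not test the tissue label. The libraries differed in other cells. All 12 choroid plexus markers were higher in replicate 2, with a summed level of 33.7 TPM in replicate 1 and 658 TPM in replicate 2, and Kcne2 was listed at 0 in replicate 1. Of these 12 markers, 7 met the 2-fold rule defined below, namely Ttr, Kl, Clic6, Sostdc1, Aqp1, Slc4a5 and Kcnj13. Of 5 fibroblast markers 4 were lower in replicate 2, Slc6a13, Col1a1, Col1a2 and Dcn, with sums of 53.7 and 38.6 TPM. The part of these cells in the members' values was not tested.

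Of the members, 36 of 37 were detected, where 27.5% of all annotated genes and 59.1% of nuclear protein-coding genes were. Their mean levels ran from 0.30 to 102 TPM. Only 12 of them lay above 17.5 TPM, the median of the 13010 detected protein-coding genes, so most lineage genes were of middle to low abundance in this tissue. Within 2-fold of 10 TPM lay 18 members, while 4 reached 50 TPM and 7 were under 5 TPM. The 37 together held 0.164% of protein-coding TPM in replicate 1 and 0.161% in replicate 2, less than the 6 genes of the major myelin proteins, which held 0.298% and 0.313%. In bulk tissue, fewer cells of the lineage and less RNA per cell cannot be told apart. The part of cells outside the lineage in the level of each member was not tested either.

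**Figure D1:**
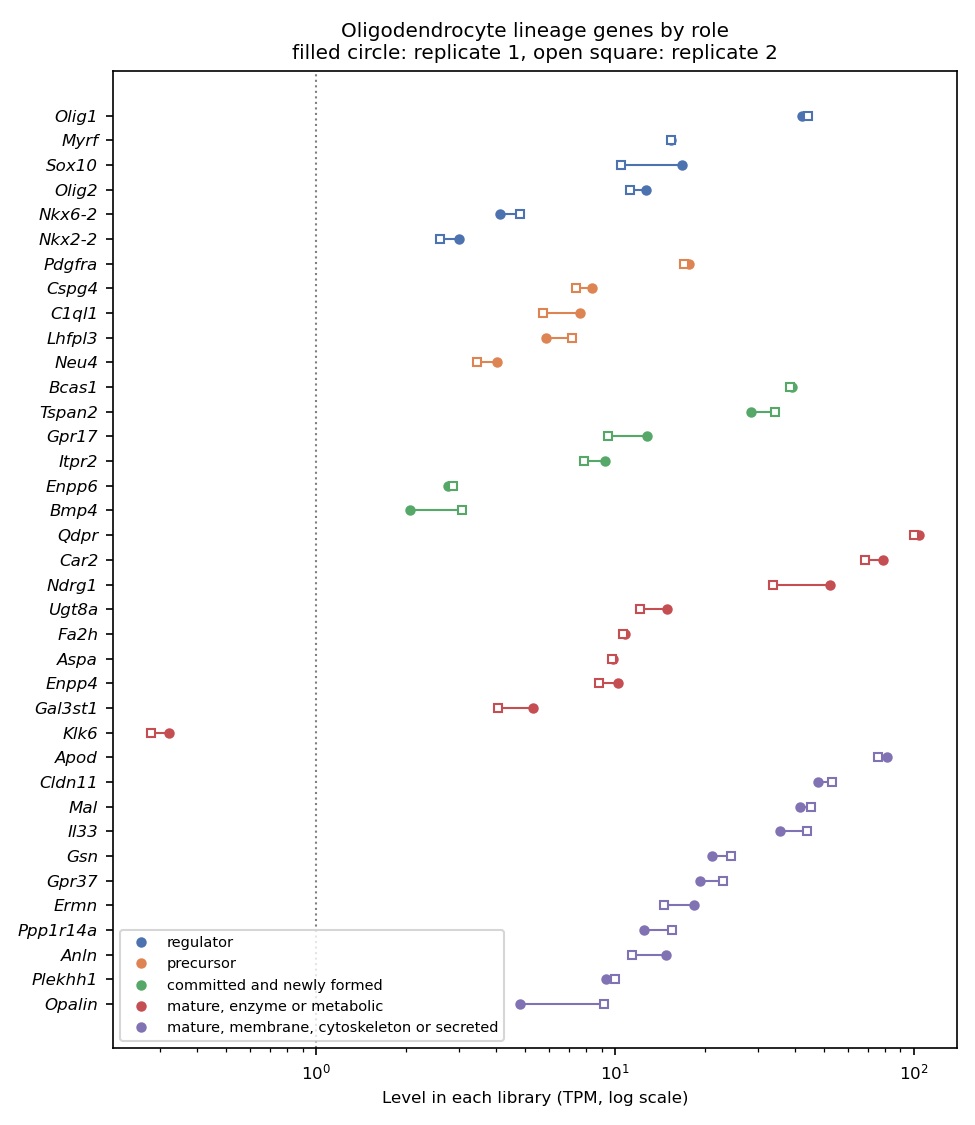
Level of each of the 37 members in TPM (log axis), grouped by role and ordered by mean within each role. Filled circles are replicate 1, open squares replicate 2, and the dotted line marks 1 TPM. Only Klk6, at 0.32 and 0.28 TPM, lies below the line.

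All 6 transcriptional regulators were detected. Olig1, a basic helix-loop-helix factor, was the highest, with 42.1 TPM in replicate 1 against 44.2 TPM in replicate 2. Its neighbour Olig2, which specifies the lineage, stood at 12.6 and 11.2 TPM. Olig1 (chromosome 16, 91269772 to 91271933, mm10) thus exceeded Olig2 (91225457 to 91228677) by 3.33-fold in replicate 1 and 3.94-fold in replicate 2, although only 41094 bases separate them on the plus strand and each has a single annotated transcript. Myrf was at 15.3 TPM in both libraries. Sox10, an HMG-box factor, was at 16.8 and 10.5 TPM, a mean of 13.6 ± 4.4 TPM. The spread of Sox10 was thereby the widest of the regulators, and that of Myrf the narrowest.

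The homeodomain factors were lower. Nkx6-2 was at 4.12 and 4.81 TPM and Nkx2-2 at 3.01 and 2.60 TPM. Nkx6-2 carries a limit, since an exon of it overlaps one of Inpp5a on the other strand by 246 bases. Inpp5a held 1039 and 904 counts where Nkx6-2 held 157 and 143, and the strand setting of the counting is unknown from the sources used here. Most of the Nkx6-2 level, 100% and 80.5% of its TPM in replicates 1 and 2, was assigned to Nkx6-2-201, a transcript annotated as a target of nonsense-mediated decay. By the means of the first table it was the only member whose leading transcript was not annotated as protein coding. Intron-retaining transcripts, however, led Bmp4 in replicate 2 of the first table. In the second table they led Apod by the mean and Opalin in replicate 1. Among 5 further regulators, all were detected, led by the Sox10 relative Sox8 at 24.4 TPM and the zinc finger factor Zfp536 at 22.4 TPM.

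The 5 precursor genes were all detected at 3.73 to 17.3 TPM. Pdgfra, the receptor through which platelet-derived growth factor drives precursor division, was at 17.7 and 16.95 TPM. Cspg4, the NG2 proteoglycan, was at 8.37 and 7.39 TPM, and C1ql1, a secreted C1q-like protein, at 7.60 and 5.75 TPM. Pdgfra stood above the others in both libraries. Lhfpl3, a membrane protein, followed at 5.85 and 7.16 TPM, and Neu4, a sialidase, was the lowest at 4.01 and 3.44 TPM. C1ql1 and Lhfpl3 changed order between the libraries, while Cspg4 was above both in each. Pericytes also make Cspg4 and fibroblasts Pdgfra, and the summed levels of 5 mural markers were 74.6 and 72.3 TPM. Of 6 further precursor genes, 6 were detected, led by the matrix protein gene Tnr at 64.3 TPM and the factor Sox6 at 11.4 TPM.

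Genes of committed and newly formed oligodendrocytes, 6 in number, spanned 2.56 to 38.8 TPM. Bcas1, a marker of cells starting to form myelin, was at 39.1 and 38.5 TPM. Tspan2, a tetraspanin, was at 28.5 and 34.4 TPM. Gpr17, a receptor made in the committed stage and shut off later, was at 12.75 and 9.45 TPM. Bcas1 thus lay above the precursor genes among the members, and Gpr17 within their range. The further precursor gene Tnr, at 64.3 TPM, was above Bcas1. Itpr2, an intracellular calcium channel, was at 9.21 and 7.84 TPM, and Enpp6, a choline phosphodiesterase of newly formed cells, at 2.75 and 2.86 TPM. Bmp4, a secreted signalling protein, was the lowest of the group at 2.05 and 3.06 TPM, from 60 and 31 counts. An exon of Gpr17 overlaps one of Lims2 on the other strand by 121 bases, and the counts of Lims2 were 14.6% of those of Gpr17.

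The 9 enzymes and metabolic genes of mature cells held the highest and the lowest of all members. Qdpr (chromosome 5, 45434021 to 45450236), which regenerates the cofactor tetrahydrobiopterin, led with 104 and 100.05 TPM. Car2, a cytosolic carbonic anhydrase, was at 78.5 and 68.4 TPM. Ndrg1, a hydrolase-fold protein of myelinating cells, was at 52.2 and 33.8 TPM. Of these 3, the libraries differed most in Ndrg1. Klk6 (chromosome 7, 43824499 to 43832030), a secreted serine protease, was the lowest at 0.32 and 0.28 TPM from 8 and 5 counts, and was the only member not detected by the rule.

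Galactolipid synthesis takes 3 members. Ugt8a, which makes galactosylceramide, was at 14.85 and 12.1 TPM. Fa2h, which hydroxylates the fatty acids used for it, was at 10.8 and 10.6 TPM. Gal3st1, which adds sulfate to give sulfatide, was at 5.29 and 4.04 TPM, below both in each library. Aspa, which splits N-acetylaspartate, was at 9.81 and 9.75 TPM, and Enpp4, a phosphodiesterase family member, at 10.2 and 8.81 TPM.

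Membrane, cytoskeletal and secreted proteins of mature cells gave 11 members, all detected. Apod, a lipid carrier, was at 80.9 and 76.0 TPM. Cldn11, which seals the layers of myelin with tight junctions, was at 47.7 and 53.3 TPM, and Mal, a proteolipid of myelin membrane, at 41.5 and 45.2 TPM. Il33, a nuclear cytokine, followed at 35.6 and 43.7 TPM. Fibroblasts can also make Apod, and astrocytes Il33, and the summed level of 7 astrocyte markers was 1370 and 1404 TPM. Gsn, an actin-severing protein, was at 22.7 ± 2.4 TPM, with 24.4 TPM in replicate 2, and Gpr37, a receptor, at 19.15 and 22.9 TPM. Ermn, an actin-binding protein of the myelin sheath, was at 18.4 and 14.6 TPM.

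Lower in this group were Ppp1r14a, an inhibitor of myosin phosphatase, at 12.5 and 15.5 TPM, Anln, a septin scaffold, at 14.8 and 11.4 TPM, and Plekhh1 at 9.28 and 9.99 TPM. An exon of Plekhh1 overlaps one of Pigh on the other strand by 992 bases, and Pigh held 19.2% as many counts. Opalin (chromosome 19, 41061710 to 41077113), a transmembrane glycoprotein of myelin, was the lowest at 4.81 and 9.19 TPM. No other detected member had a wider spread relative to its mean, with a coefficient of variation of 44.2%. Of the 6 myelin protein genes all were detected, from Mbp at 736 TPM down to Mog at 21.8 TPM. Of 23 further genes of mature cells 22 were detected, led by the iron carrier Trf at 161 TPM and the tubulin-binding protein Tppp at 137 TPM.

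Placed in 1 order by mean TPM, the 37 members gave 36 neighbouring pairs, of which 12 stood apart, meaning that the gap was larger than either SD and did not change sign between the libraries. Steps of this kind followed Qdpr, Car2, Cldn11, Bcas1, Tspan2, Gpr37, Fa2h, Enpp4, Lhfpl3, Nkx6-2, Neu4 and Bmp4. From Pdgfra down to Fa2h, 10 successive members with means of 17.3 to 10.7 TPM had no such step between neighbours. Neighbours in this stretch are therefore not resolved by 2 libraries, while its ends are, with Pdgfra above Fa2h in both.

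Ratios between the libraries were taken from counts, as replicate 2 over replicate 1 after TMM scaling, with an exact Clopper-Pearson 95% interval that covers counting error only. The 2-fold rule asked that the log2 ratio be 1 or more in size, that the mean count reach 50 and that the interval exclude a ratio of 1. No member met it, of 35 at this count, where the rule took in 1.1% of 14434 genes, 0.589% higher and 0.513% lower in replicate 2, a share at which 35 genes would hold fewer than 1. This compares libraries and not conditions. The interval excluded 1 in 21 of the 35, against 44.3% of all genes. Of the 35, 10 were higher in replicate 2 with an interval excluding 1, where 18.7% of all genes were, and 11 of the 35 were lower in this way, where 25.6% were. Counting only the direction, 15 of 36 members with a mean count of at least 10 were higher in replicate 2, against 48.5% of all genes. The median log2 ratio was -0.05, beside -0.01 for all genes, and the median size of the log2 ratio was 0.19, beside 0.15 for 10478 genes with mean counts in the same range. Under this scaling the members' median was thus close to that of all genes. Scaled to the spike-ins instead, the median of all genes was -0.25 and that of the members -0.29. Under that scaling 5 of 36 members were higher in replicate 2, and the share of all genes was not taken.

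**Figure D2:**
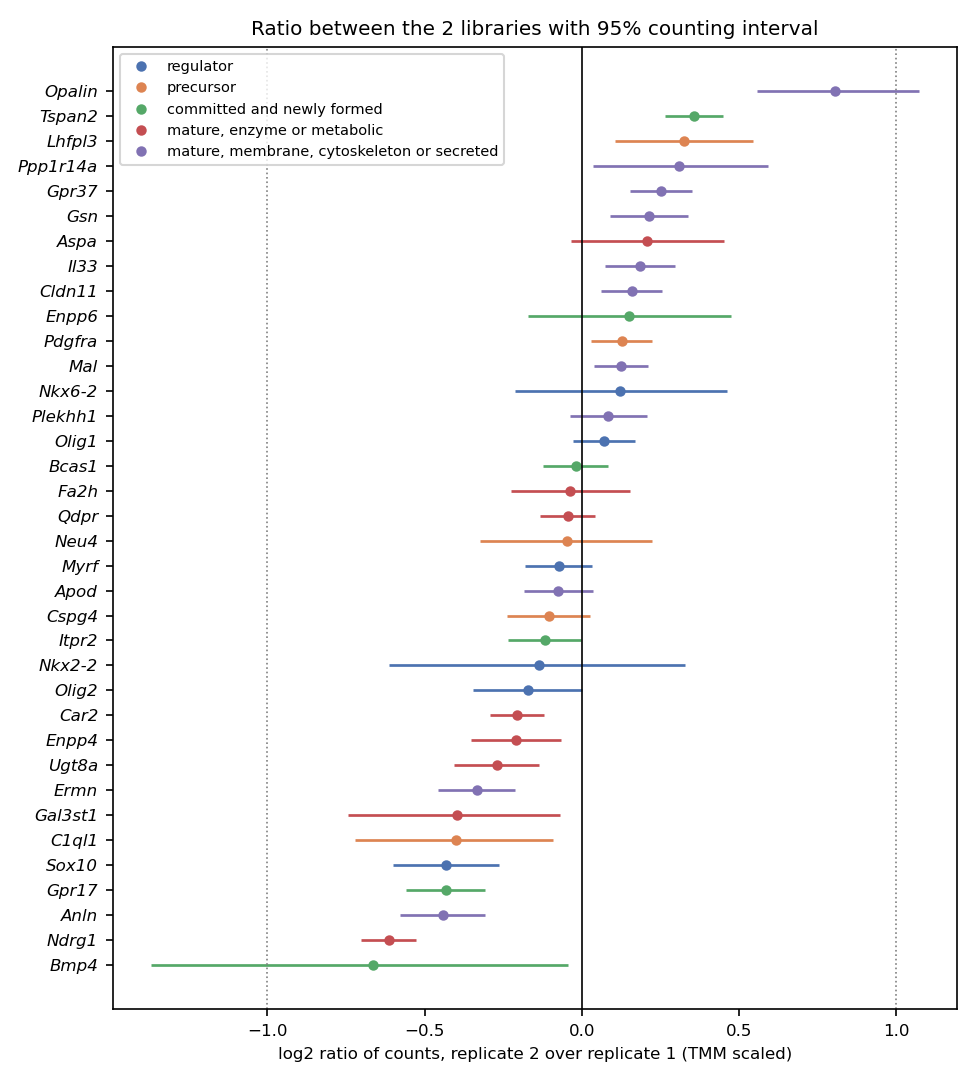
log2 ratio of counts (replicate 2 over replicate 1, TMM scaled) for the 36 members with a mean count of at least 10, ordered by ratio and coloured by role. Bars are 95% counting intervals and dotted lines mark 2-fold. Opalin, at 0.81, lies farthest to the right and Bmp4, at -0.66, farthest to the left.

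Opalin had the largest ratio and was the only member within 0.3 of the 2-fold line. Its counts were 212 in replicate 1 and 311 in replicate 2, a log2 ratio of 0.81 with an interval of 0.56 to 1.07. At the other end, Bmp4 had a ratio of -0.66, but its interval of -1.37 to -0.05 was the widest among members with at least 10 counts. Ndrg1 was better measured, with 2949 and 1610 counts, a ratio of -0.61 and an interval of -0.70 to -0.53. Next came Anln at -0.44, Gpr17 at -0.43 and Sox10 at -0.43, whose counts were 762 and 472. These 6 genes come from 4 of the 5 roles, so the largest ratios did not gather in 1 stage.

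By role, the ratios of regulators had a median of -0.11, with 2 of 6 higher in replicate 2, and Sox10 was the only one whose interval excluded 1. Precursor genes had a median of -0.05. Pdgfra was higher in replicate 2 by counts, at 0.13 with an interval of 0.03 to 0.22, and Lhfpl3 likewise at 0.32, while C1ql1 was lower at -0.40. Committed and newly formed genes had a median of -0.07, with Tspan2 higher at 0.36 and Gpr17 lower. Itpr2 was also lower, at -0.12 with an interval of -0.23 to -0.002. The lowest and the highest role median were both of mature genes. Of 8 enzymes with enough counts, 7 were lower in replicate 2, with a median of -0.21, and the interval excluded 1 in Ndrg1, Gal3st1, Ugt8a, Enpp4 and Car2, all lower. Of 11 membrane, cytoskeletal and secreted members, 8 were higher, with a median of 0.16. The interval excluded 1 upward in Opalin, Ppp1r14a, Gpr37, Gsn, Il33, Cldn11 and Mal and downward in Anln and Ermn. Under spike-in scaling the latter median was -0.08 and that of the enzymes -0.45. Under TMM scaling, 48.5% of all genes averaging 10 or more counts were higher in replicate 2. Of all genes averaging 50 or more, the interval excluded 1 upward in 18.7% and downward in 25.6%. The difference between these roles was not tested, since the members are not replicates. The roles were also chosen with earlier results of these data known, so an opposite shift of the 2 mature roles is not shown.

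Genes of the same stages outside the members varied in the size of their ratios. The median size was 0.33 in other regulators, 0.13 in the member regulators and 0.08 in other precursor genes. The 6 myelin protein genes had a median of 0.27, from -0.05 for Mbp to 0.60 for Mog, and 5 of 6 were higher in replicate 2. The other mature genes had a median of 0.09, with 14 of 22 higher, from Cryab at -0.72 to Elovl7 at 0.87, and none met the 2-fold rule. Other regulators and precursor genes had medians of -0.09 and -0.07. Beside these, the medians of choroid plexus and fibroblast markers were 2.46 and -0.59, larger in size than that of any role of the lineage.

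**Figure D3:**
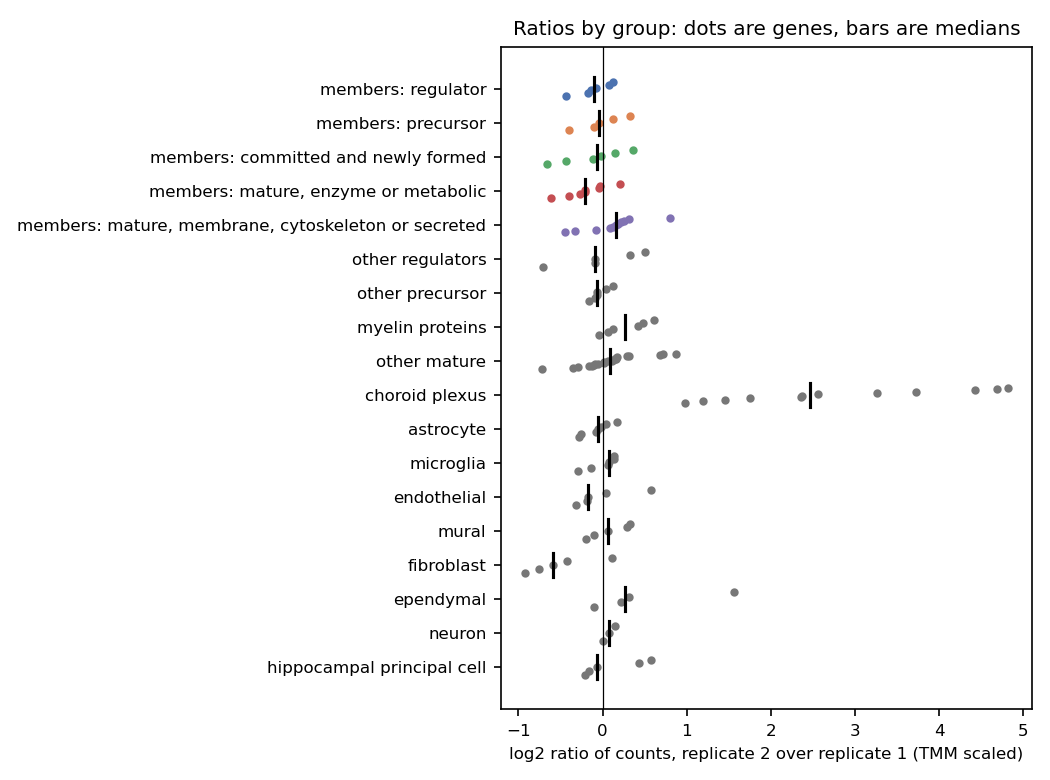
log2 ratio of counts (replicate 2 over replicate 1, TMM scaled) for members by role, in colour, and for other gene lists, in grey. Dots are genes with a mean count of at least 10 and black bars are medians. Choroid plexus markers lie at 0.98 to 4.81, and the role medians at -0.21 to 0.16.

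Several members are read in more than 1 form. Of the 37 members 6 have a single annotated transcript, namely Olig1, Olig2, Gpr17, C1ql1, Cldn11 and Ermn. The other 31 have 2 or more, up to 13 in Ndrg1. In 13 of these the leading transcript held at least 70% of the gene's TPM in the mean of both libraries. Mal-202 and Enpp4-201 held 100%, Ndrg1-201 held 93.0 ± 0.65% despite its 12 alternatives, and Car2-201 held 92.1 ± 0.20%. In 18 members the leader held less, from Aspa-201 at 68.0 ± 15% and Pdgfra-201 at 67.7 ± 1.1% to Gsn-205 at 48.3 ± 8.3% and Apod-202 at 46.2 ± 1.8%. Between these lay Gpr37, Nkx2-2, Tspan2, Klk6, Qdpr, Gal3st1, Il33, Neu4, Cspg4, Lhfpl3, Itpr2, Sox10, Bmp4 and Enpp6. A second transcript table, quantified by another method, named the same leader in 25 of the 31. It named another in Apod, Bmp4, Gpr37, Gsn, Il33 and Neu4, and the leader was the same in both libraries and both tables in 20. The same shares over all genes with several transcripts were not taken, so these counts are not shown to be particular to the members.

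**Figure D4:**
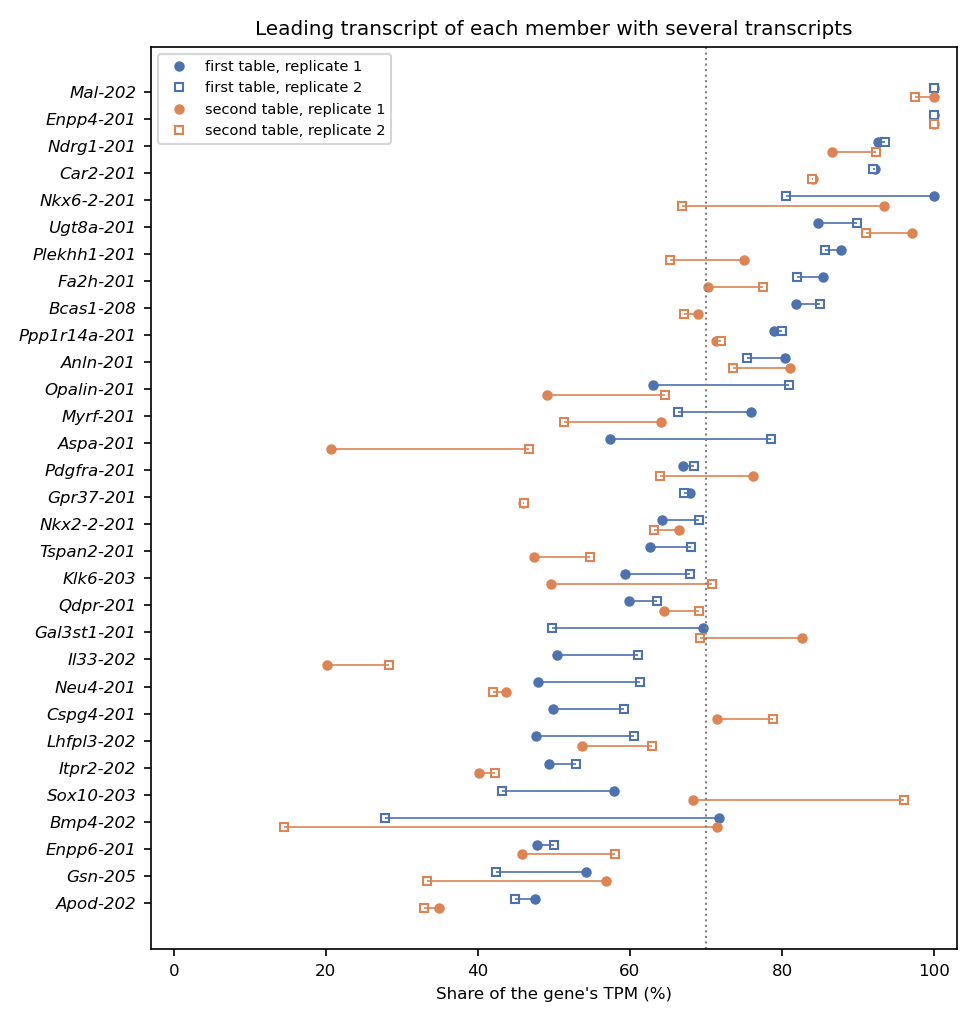
Share of each gene's TPM held by its leading transcript, for the 31 members with several transcripts, ordered by mean share. Blue is the first transcript table and orange the second, filled circles are replicate 1 and open squares replicate 2, and the dotted line marks 70%. In Bmp4-202 the first table gives 71.7% and 27.8%, and in Gpr37-201 the tables differ more than the libraries.

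For Gsn the choice of transcript follows the start site. The gene (chromosome 2, 35256380 to 35307892, plus strand) has an upstream group of starts, led by Gsn-205 with 731 codons, the length of cytoplasmic gelsolin, and an internal group 26000 bases further on, led by Gsn-201 with 780 codons, the length of the secreted form. The 250 bases before each start are shown because these starts divide the level of the gene. They are RefSeq windows on GRCm38.p6, the same build as mm10, and capitals mark matches to the letters CAGCTG, an E-box core, or GGGCGG, a GC box, on either strand, of which none overlap.
Gsn upstream start, chr2:35256109-35256358, plus strand: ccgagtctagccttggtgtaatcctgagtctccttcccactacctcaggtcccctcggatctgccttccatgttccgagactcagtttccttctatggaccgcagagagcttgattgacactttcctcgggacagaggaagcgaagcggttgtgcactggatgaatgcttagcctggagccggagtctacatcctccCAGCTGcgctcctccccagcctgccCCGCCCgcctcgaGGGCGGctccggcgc
Gsn internal start, chr2:35282130-35282379, plus strand: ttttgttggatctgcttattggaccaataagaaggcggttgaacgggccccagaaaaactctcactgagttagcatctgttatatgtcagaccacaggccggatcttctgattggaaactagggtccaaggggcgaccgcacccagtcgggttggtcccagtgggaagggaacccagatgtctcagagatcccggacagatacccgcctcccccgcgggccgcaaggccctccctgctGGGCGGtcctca
The upstream group held 12.45 TPM in replicate 1 and 11.5 TPM in replicate 2, which was 59.3% and 47.2% of the gene. The internal group held 8.55 and 12.9 TPM, which was 40.7% and 52.8%. The internal start was thus the lower of the pair in replicate 1 and the higher in replicate 2. In the second table its share was 36.0% and 63.5%, in the same order. The GC-box letters are in both windows, the E-box letters only in the upstream one.

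Il33 (chromosome 19, 29925114 to 29960718, plus strand) also has starts far apart. Its internal transcript Il33-201 begins 20676 bases after Il33-202, and both code for 266 codons, so the choice does not alter the encoded length. The windows before these starts are shown for the same reason, with capitals on TATAAA, the letters of a TATA box.
Il33 upstream start, chr19:29924863-29925112, plus strand: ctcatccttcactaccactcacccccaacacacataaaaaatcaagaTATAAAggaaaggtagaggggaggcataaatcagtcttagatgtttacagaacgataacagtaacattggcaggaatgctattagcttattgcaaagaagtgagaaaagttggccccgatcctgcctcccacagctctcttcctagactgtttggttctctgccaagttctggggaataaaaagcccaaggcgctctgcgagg
Il33 internal start, chr19:29945540-29945789, plus strand: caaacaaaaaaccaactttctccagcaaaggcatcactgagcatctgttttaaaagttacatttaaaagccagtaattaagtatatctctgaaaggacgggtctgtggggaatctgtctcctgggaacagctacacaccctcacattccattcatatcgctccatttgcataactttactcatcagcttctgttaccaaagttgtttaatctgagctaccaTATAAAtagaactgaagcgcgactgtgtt
The upstream group held 25.5 TPM, or 71.8% of the gene, in replicate 1 and 42.3 TPM, or 96.9%, in replicate 2. Il33-201 held 6.07 TPM, or 17.1%, in replicate 1 and was listed at 0 in replicate 2. The second table gave the internal start 19.4% and 5.56%, so there it was low but not 0 in replicate 2. The TATAAA letters lie 29 to 24 bases before the internal start and 203 to 198 bases before the upstream one. The tables also differed in level, since Il33 was at 39.6 ± 5.7 TPM in the gene table and 60.8 TPM in the second table. There Il33-204, a short transcript of 377 bases, held 52.1% of the level, against 8.48% in the first table.

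Other members were also divided between starts, Bcas1 and Anln less evenly than Gsn. In the first table the leading transcript of Bcas1, which begins 21319 bases from Bcas1-201, held 81.8% and 84.9%, and Anln-201 held 80.4% and 75.4%. The second table gave the Bcas1 leader 68.9% and 67.1%, the group of Bcas1-201 28.3% and 24.8%, and Anln-201 81.0% and 73.6%. Lhfpl3-202 and Lhfpl3-201 begin 354493 bases apart. In the first table they held 47.7% and 52.3% of TPM in replicate 1 and 60.6% and 39.4% in replicate 2. Sox10-203 held 57.9% and 43.1% in the first table, and the leader in replicate 2 was Sox10-201, which starts 750 bases further along and held 14.3% and 51.9%. Both encode 466 codons. In the second table Sox10-203 led in both libraries with 68.3% and 96.0%, so the exchange of leaders was seen in the first table alone. Gpr37-201 held 67.9% and 67.1% in the first table and 45.9% and 46.0% in the second, a difference between methods and not between libraries. Gal3st1, Lhfpl3 and Neu4 also changed leader between the libraries in the first table.

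Transcripts annotated as retaining an intron, which carry no annotated coding sequence, were present for 17 members, with a median share of 10.7% of TPM, beside 13.1% over 7652 such genes. In 5 of the 17 the share was over 25%, and it was so in 26.9% of all such genes. In the second table it was so in 2 of the 17, Apod and Opalin, and in 28.5% of all such genes. Apod had 48.5% and 50.2% of TPM in such transcripts, Cspg4 50.1% and 40.8%, Qdpr 34.3% and 36.5% and Opalin 37.01% and 19.0%. The second table gave Cspg4 28.5% and 21.2%, Qdpr 9.07% and 20.04%, Apod 61.8% and 64.0% and Opalin 50.96% and 35.5%, so the shares of Cspg4 and Qdpr were lower there. The leading coding transcript Apod-202 was at 38.45 and 34.1 TPM, well under the level of the whole gene. In Opalin the coding transcript Opalin-201 was at 3.03 and 7.44 TPM, while the intron-retaining Opalin-202 was at 1.78 and 1.75 TPM. The difference between the libraries in Opalin thus lay in the coding transcript, whose share in the second table was likewise 49.0% and 64.5%. Bmp4 had 14.6% in replicate 1 and 72.2% in replicate 2, the latter from Bmp4-204, a transcript of 258 bases with 1 and 5 counts, and Bmp4-203 with 0 and 3. In the second table these shares were 0% and 22.3%, and Bmp4-204 was listed at 0 in both libraries. In the gene table the TPM of Bmp4 was higher and its count lower in replicate 2.

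The Opalin window is shown because this member had the largest ratio between the libraries. Capitals mark ACAAAG, letters bound by Sox proteins, found once.
Opalin start, chr19:41077114-41077363, minus strand: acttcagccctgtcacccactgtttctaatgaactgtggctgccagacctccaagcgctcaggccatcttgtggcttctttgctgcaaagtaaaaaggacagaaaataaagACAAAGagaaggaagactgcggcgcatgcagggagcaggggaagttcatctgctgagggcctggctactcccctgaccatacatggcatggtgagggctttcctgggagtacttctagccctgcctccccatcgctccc
Promoter windows of 250 upstream bases were found for 28 of the 37 members, 35 windows in all, among 32851 windows in the RefSeq table. The Sox-type letters ACAAAG were in 11.4% of member windows and in 16.5% of all windows. The related letters ACAATG were in 17.1% and 10.7%, among them those of Ermn, Enpp6 and Gal3st1. Overlapping windows of Gal3st1 hold the same site, which is thus counted more than once, and 5 members have the letters. CAGCTG was in 14.3% and 13.0%, TATAAA in 11.4% and 12.4% and GGGCGG in 45.7% and 32.7%. Both strands were searched. The median GC content was 59.6% in member windows and 52.4% in all, from 36.4% before Apod to 76.8% before Ugt8a. These shares describe letters and were not tested.

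The second table gave most members a somewhat lower level. In it 31 of 37 members were below the gene table, with a median of 0.875 times the first. The same share over all genes was not taken, so this is not shown to be particular to the members. Among markers of other cells, Snap25 was at 0.904 and Slc1a2 at 0.825 times the first, while Slc1a3 was at 1.23 times. Only Il33, at 1.53 times, and Bmp4, at 0.600 times, differed by over 1.5 times, and Apod was 1.32 times higher. Il33 and Bmp4 thus differed more between the tables than between the libraries. The deposited posterior SD of the gene count, a measure of doubt in read assignment, was 0 in both libraries for all 37 members. Exons of 13 members overlap those of another gene, in 12 only on the opposite strand. In 4 of these, Nkx6-2, Plekhh1, Gpr17 and Nkx2-2, the overlapping gene held over 5% of the member's count. TPM and counts disagreed in the sign of the ratio in 3 members, Aspa, Bmp4 and Pdgfra.

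**Figure D5:**
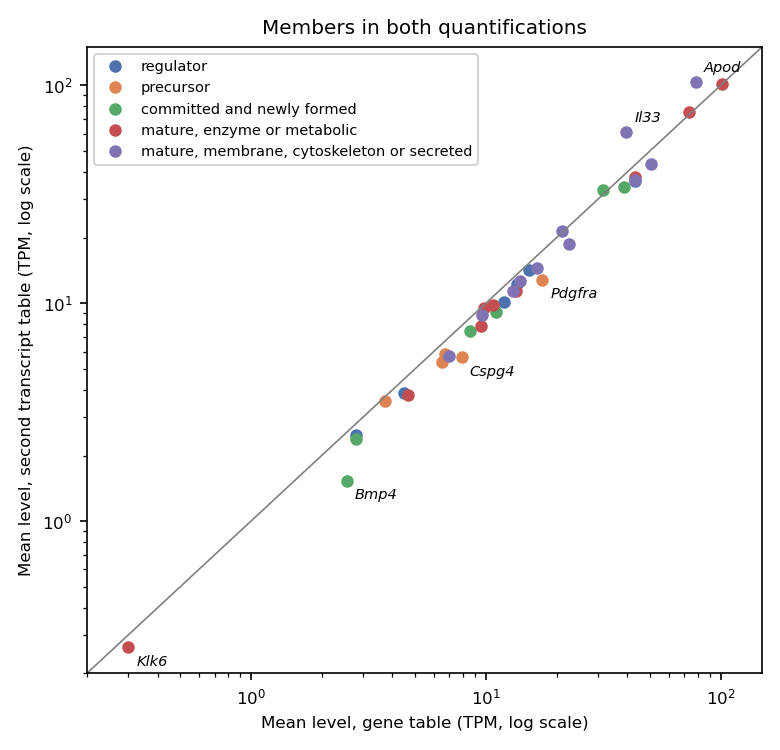
Mean TPM of each member in the gene table (x axis) and in the second transcript table (y axis), both log scaled, coloured by role, with the line of equal values. Most points lie just below the line, Il33 and Apod lie above it, and Bmp4 lies below it at 2.56 and 1.53 TPM.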

How the data were processed

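Total RNA-seq of 2 hippocampus libraries was analysed on mm10 with GENCODE M21, per the notes deposited with the files. Expected counts and TPM per gene and transcript were deposited by the authors in the column layout of RSEM, and per the file headers a second transcript table holds estimated counts and TPM in that of kallisto. The authors also deposited a posterior SD per count, a signal in units of counts. Aligner, tool versions and strand setting are not given in the sources here. How reads from the CAST/EiJ genome fared against this reference was not tested.

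Expected counts were rounded and scaled by TMM in edgeR 4.0.16 (R 4.3.3) over all 55536 annotated genes, giving effective sizes of 34038040 and 28448001, and log2 ratios took a prior count of 2. Intervals are exact Clopper-Pearson at 95%, from the conditional binomial in SciPy 1.17.1, and cover counting error only. No p-value was computed. The ratio step was tested on simulated data. Starts within 500 bases were joined to a group. Promoter windows came from RefSeq on GRCm38.p6, matched by symbol, and 9 members had no entry.

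Members, roles, lists and motifs were chosen with earlier results of these data known. All members are named with their level. Per-library values were set for the 3 highest and the lowest of each role, members within 0.3 of the 2-fold rule and those with a divided or differing leading transcript, and are given here for nearly all. Of other lists, the 2 highest genes and those meeting the 2-fold rule are named, except what is not reported here, and other names were chosen after their values were seen. Alternatives were DESeq2 1.42.0 size factors, spike-ins, total counts, the second table, TPM rescaled over protein-coding genes, TPM + 1, other thresholds and each library left out.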

Additional observations from a re-analysis of the deposited data

How the results depend on the processing

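The number of members detected, 36, and the absence of members meeting the 2-fold rule were the same under each alternative run for them. The 13 members with a leading transcript of at least 70% changed in part. The second transcript table gave 14, of which 10 were shared, without Bcas1, Myrf and Opalin and with Cspg4, Gal3st1, Pdgfra and Sox10. With 1 library left out, 36 to 36 members were detected and 13 to 13 had such a leader, 12 of them shared each time. Without replicate 1 Aspa took the place of Myrf, and without replicate 2 Bmp4 that of Opalin. Single levels moved by under 1 SD by construction. Rescaling TPM over nuclear protein-coding genes moved all 37 levels upward by construction, that of Qdpr from 102 to 204 TPM, and the second table moved 23. Scaling to the ERCC spike-ins changed direction most. It left 5 members higher in replicate 2 in place of 15 and gave a median log2 ratio of -0.29 in place of -0.05, with the median of all genes at -0.25. The 10 members that changed sign were Aspa, Cldn11, Enpp6, Gsn, Il33, Mal, Nkx6-2, Olig1, Pdgfra and Plekhh1. Spike-in scaling changes only the library sizes, and it lowered the ratio of every member. These 10 had small positive ratios before, from 0.07 in Olig1 to 0.21 in Gsn. The shares of all genes higher in replicate 2, or changing sign, under this scaling were not taken, so these counts are not particular to the members. Why the spike-ins gave another scale was not tested. DESeq2 size factors and total counts changed no sign, the second table changed that of Fa2h, and a ratio of TPM + 1 those of Aspa, Bmp4 and Pdgfra. No paired analysis was possible because the 2 libraries form 1 group. The 60864 and 60209 spike-in counts and the counts under 100 of Bmp4, Nkx2-2 and Klk6 limit these values.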
